A study of Mus musculus with 14 samples.

Results

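Acta2, Actg2, Mylk, Cnn1, Oxtr and Krt14 are 6 of the 6044 named genes in the deposited table, and 13 of its 9645 probe sets carry one of these symbols alone. They were chosen by name: 4 genes of the smooth muscle apparatus, the receptor that triggers it, and a keratin of the basal layer. Acta2 and Mylk had 3 probe sets each, Oxtr 2, Krt14 3, and Actg2 and Cnn1 1 each. All 13 were used, averaged per gene unless a probe set is named.

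The study sorted mammary cells of virgin female C57BL6/J mice aged 6 to 8 weeks into populations by surface CD24, CD49f and Thy-1 and measured each on Affymetrix mouse expression arrays. The series design calls 3 populations basal: Thy-1+CD24medCD49fhigh (stem cells, 3 arrays), Thy-1-CD24medCD49fhigh (progenitor cells, 3 arrays) and CD24medCD49fmed (myoepithelial cells, 3 arrays; the methods write CD24lowCD49fmed for this gate). Its luminal populations are CD24highCD49fmed (luminal progenitor cells, 3 arrays) and CD24medCD49f-/low (differentiated luminal cells, 2 arrays). The labels name no treatment or altered allele for any group, and the cells were also stained for CD45, CD31 and Ter119 and passed through the sorter again, and the methods list an antibody to CD140a among the reagents. Whether replicates are different animals is not stated, so the p-values measure only the spread between these arrays, which may be technical.

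Myoepithelial cells form the outer, basal layer of mammary ducts and alveoli and squeeze milk outward. Oxytocin released at suckling binds its receptor on them, calcium rises, and myosin light chain kinase phosphorylates myosin so that it pulls on smooth muscle actin. The same cells are epithelial and carry the keratin pair of basal layers, which luminal cells largely lack, so contractile genes and basal keratins are both read as marks of this layer.

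Values are log2 signals centred on the mean of the 14 arrays for each probe set, so 0 is a gene's own mean, and heights can be compared between arrays but not between genes. In bulk RNA, fewer cells of a type and less RNA per cell cannot be told apart.

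Acta2 encodes smooth muscle alpha actin and lies at chr19:34240336-34255585 (GRCm38.p6). Actg2, the smooth muscle gamma actin, is at chr6:83512909-83536251, and the protein it encodes is nearly the same as that of Acta2. Cnn1, at chr9:22099221-22109221, encodes calponin, which binds actin. Mylk, the myosin light chain kinase gene, spans chr16:34745199-35002436. Oxtr, the oxytocin receptor gene, is at chr6:112473683-112491035, and Krt14, a basal keratin gene, is at chr11:100203162-100207510. The names of 1416454_s_at of Acta2 and 1423935_x_at of Krt14 mark probes that can match transcripts of other genes. That of 1422340_a_at of Actg2 marks probes shared by transcripts of the same gene. Whether the probe sets of Acta2 and Actg2 share signal was not tested, so its split between them is uncertain.

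The sequences before the starts of Acta2 and Cnn1 are shown because these windows were on hand and lie at least in part before the annotated gene, and smooth muscle genes are a textbook case of control by serum response factor, which binds the CArG box. RefSeq promoters were found for 5 of the 6 genes, Actg2 not among them, and those of Mylk, Oxtr and Krt14 lie wholly inside the annotated gene. Each line gives the 250 bases before the start on the strand of the gene, at chr19:34255374-34255623, minus strand, for Acta2 and at chr9:22099003-22099252, plus strand, for Cnn1 (GRCm38.p6). Of these, 212 bases for Acta2 and 32 for Cnn1 overlap the annotated gene. Capitals mark matches to the motifs searched.
Acta2: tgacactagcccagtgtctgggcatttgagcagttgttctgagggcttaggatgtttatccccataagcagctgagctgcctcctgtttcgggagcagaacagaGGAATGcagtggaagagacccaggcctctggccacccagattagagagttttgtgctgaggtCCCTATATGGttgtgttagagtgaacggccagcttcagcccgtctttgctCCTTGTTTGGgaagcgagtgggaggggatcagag
Cnn1: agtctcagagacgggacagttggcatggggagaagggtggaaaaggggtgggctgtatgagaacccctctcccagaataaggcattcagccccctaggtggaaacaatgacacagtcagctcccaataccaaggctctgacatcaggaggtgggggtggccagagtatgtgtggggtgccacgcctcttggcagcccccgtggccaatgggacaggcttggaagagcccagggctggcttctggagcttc

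Both strands were searched for the CArG box, the TEAD motif CATTCC, the TATA motif TATAAA and a single p63 motif unit, RRRCWWGYYY. Here R is A or G, W is A or T and Y is C or T. A full p63 response element was not searched as such. An exact CArG box was in none of the 5 member promoters and in 1.47% of all 32851 RefSeq promoters of the same length. With 1 base of the A/T core allowed to be G or C, a setting chosen after the sequences were seen, Acta2 held 2 matches, CCCTATATGG and CCTTGTTTGG, at 84 to 75 and 34 to 25 bases before the start, and 7.24% of all promoters held at least 1. CATTCC was found in Acta2 (as GGAATG, its reverse strand), Mylk and Krt14, and in 12.6% of all promoters. TATAAA and the p63 motif unit, in 12.4% and 7.13% of all promoters, were in none of the 5. These are letter matches within these windows only.

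Arrays that stood apart bear on every basal result below. The median over all rows was -0.74 on Thy-1+CD24medCD49fhigh replicate 1, -0.51 on replicate 3 and -0.15 on Thy-1-CD24medCD49fhigh replicate 2, against -0.02 to 0.18 on the other 6 basal arrays. Thy1 itself, the gene of the sorting antigen, was at 2.00 and 3.03 on Thy-1+CD24medCD49fhigh replicates 1 and 3 but at -0.07 on the array labelled replicate 2, which is within reach of the Thy-1-CD24medCD49fhigh arrays (-0.77, -0.10 and -0.36). Luminal keratin Krt18 was higher in luminal than in basal arrays by 2.19 ± 0.36 (SE, limma adjusted p = 5.57e-05), as the sort labels say.

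All 6 genes were far lower in luminal than in basal cells, and no luminal array reached the lowest basal one for any of them. Actg2 was at -3.42 and -3.77 on the CD24medCD49f-/low arrays and at -3.21, -3.70 and -3.33 on the CD24highCD49fmed arrays. On the CD24medCD49fmed arrays it was at 2.53, 2.78 and 2.82, on the Thy-1+CD24medCD49fhigh arrays at 0.88, 2.87 and -1.13, and on the Thy-1-CD24medCD49fhigh arrays at 2.97, 0.65 and 3.05. The luminal arrays lay close together, whereas the CD49fhigh arrays spread over 4 log2 units. The difference, mean of luminal minus mean of basal populations, was -5.44 ± 0.50 (SE, n = 5 and 9 arrays), a 43.5-fold difference, and ranked 8 from the lowest among 7190 rows.

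Mylk, the kinase that starts contraction, was at -2.92 and -2.87 on the CD24medCD49f-/low arrays and between -2.48 and -2.46 on the CD24highCD49fmed arrays. It was at 1.90, 2.04 and 1.94 on the CD24medCD49fmed arrays, at 0.36, 1.92 and -0.33 on the Thy-1+CD24medCD49fhigh arrays and at 2.12, 1.09 and 2.17 on the Thy-1-CD24medCD49fhigh arrays. Its luminal minus basal difference was -4.15 ± 0.33. Calponin Cnn1 was at -2.39 and -2.59, then at -2.52, -2.83 and -2.75, in the same luminal order. Basal Cnn1 was at 1.76, 1.62 and 2.17 in CD24medCD49fmed, at 0.78, 1.28 and 0.13 in Thy-1+CD24medCD49fhigh and at 2.54, 0.19 and 2.60 in Thy-1-CD24medCD49fhigh cells. The difference for Cnn1 was -4.05 ± 0.36, a 16.5-fold difference, close to that of Mylk (17.7-fold).

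Acta2 differed by less, -3.15 ± 0.31 or 8.86-fold. It was at -2.11 and -2.08 on the CD24medCD49f-/low arrays, at -2.11, -2.07 and -1.69 on the CD24highCD49fmed arrays, and at 1.72, 1.52 and 1.43 on the CD24medCD49fmed arrays. On the Thy-1+CD24medCD49fhigh arrays it was at 0.28, 1.56 and -0.21, and on the Thy-1-CD24medCD49fhigh arrays at 1.84, 0.82 and 1.10. Its probe sets did not report the same size: 1416454_s_at differed by -5.77 ± 0.31, whereas 1444105_at differed by -2.14 ± 0.37 and 1456658_at by -1.53 ± 0.35. The mean over probe sets therefore sits well below the largest of them.

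Oxtr, through which oxytocin acts, was at -2.07 and -1.68 on the CD24medCD49f-/low arrays and at -2.85, -2.19 and -2.45 on the CD24highCD49fmed arrays. It was at 1.56, 1.68 and 1.73 on the CD24medCD49fmed arrays, at 0.61, 1.63 and -0.74 on the Thy-1+CD24medCD49fhigh arrays and at 1.99, 0.79 and 1.99 on the Thy-1-CD24medCD49fhigh arrays. The difference was -3.43 ± 0.35, or 10.8-fold, with probe sets at -2.69 ± 0.36 (1426000_at) and -4.18 ± 0.37 (1440888_at). Among basal arrays Oxtr was lowest on Thy-1+CD24medCD49fhigh replicate 3, as were Acta2, Actg2, Mylk and Cnn1.

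Krt14 was at -2.68 and -2.52 on the CD24medCD49f-/low arrays, at -2.40, -2.75 and -2.13 on the CD24highCD49fmed arrays and at 1.72, 1.48 and 1.79 on the CD24medCD49fmed arrays. It was at 0.35, 1.74 and 1.94 on the Thy-1+CD24medCD49fhigh arrays and at 1.67, -0.05 and 1.85 on the Thy-1-CD24medCD49fhigh arrays. Unlike the other 5 genes, it was highest of all on a Thy-1+CD24medCD49fhigh array, replicate 3. The luminal minus basal difference was -3.90 ± 0.35, or 14.9-fold, with probe sets at -5.15 ± 0.36 (1423935_x_at), -5.42 ± 0.46 (1460347_at) and only -1.13 ± 0.29 (1455573_at).

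**Figure D1:**
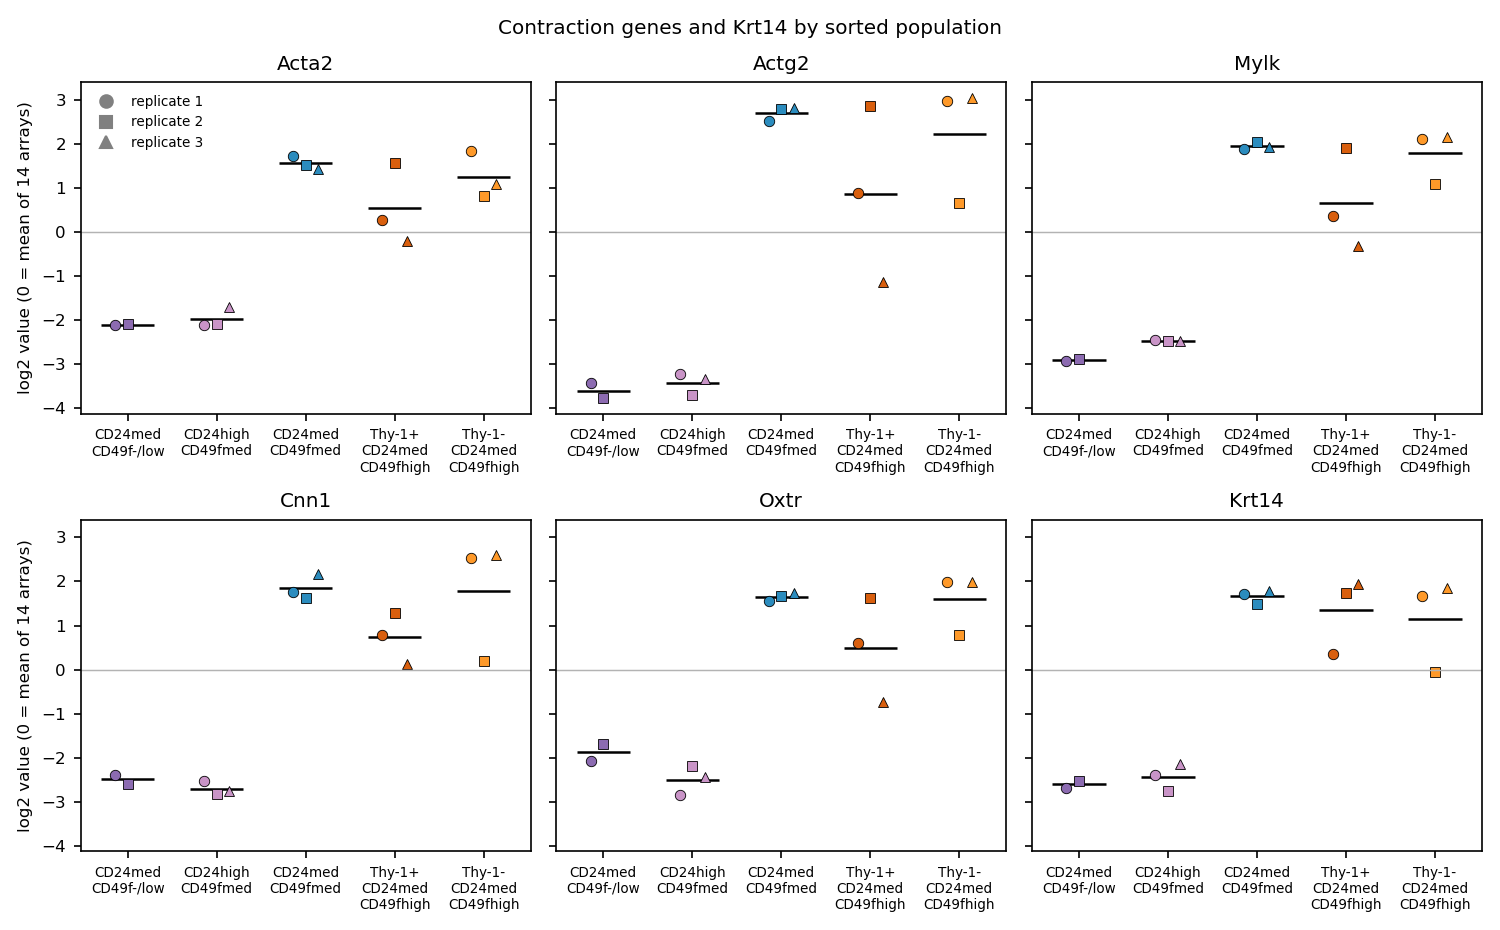
The log2 value of each gene on each of the 14 arrays, as the mean of its probe sets, by sorted population (0 is the mean of the 14 arrays). Points are arrays, shapes give the replicate number and bars the population mean; all luminal arrays lie below all basal arrays for each gene, and on Thy-1+CD24medCD49fhigh replicate 3 the first 5 genes are low while Krt14 is at 1.94.

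All 6 genes passed limma's test, with Benjamini-Hochberg adjusted p from 1.19e-08 to 2.18e-07 over 7190 rows. In this comparison 17.4% of all rows were called lower in luminal cells, 9.51% were lower without overlap of arrays, 27.7% were called higher (45.1% in either direction), and 1.72% (124 rows) differed by -3 or less, as the 6 genes did. For each of the 6 the exact permutation p was 0.000999, the smallest that 2002 splits of 5 and 9 arrays can give. The median difference was -3.97 over the 6 genes and 0.33 over all rows. Without the 3 basal arrays of lowest median the differences were larger, from -3.56 for Acta2 to -6.37 for Actg2. Centring each array on its median gave 1430 rows higher and 1569 lower in place of 1989 and 1253, and left the 6 genes between -3.42 and -5.71.

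**Figure D2:**
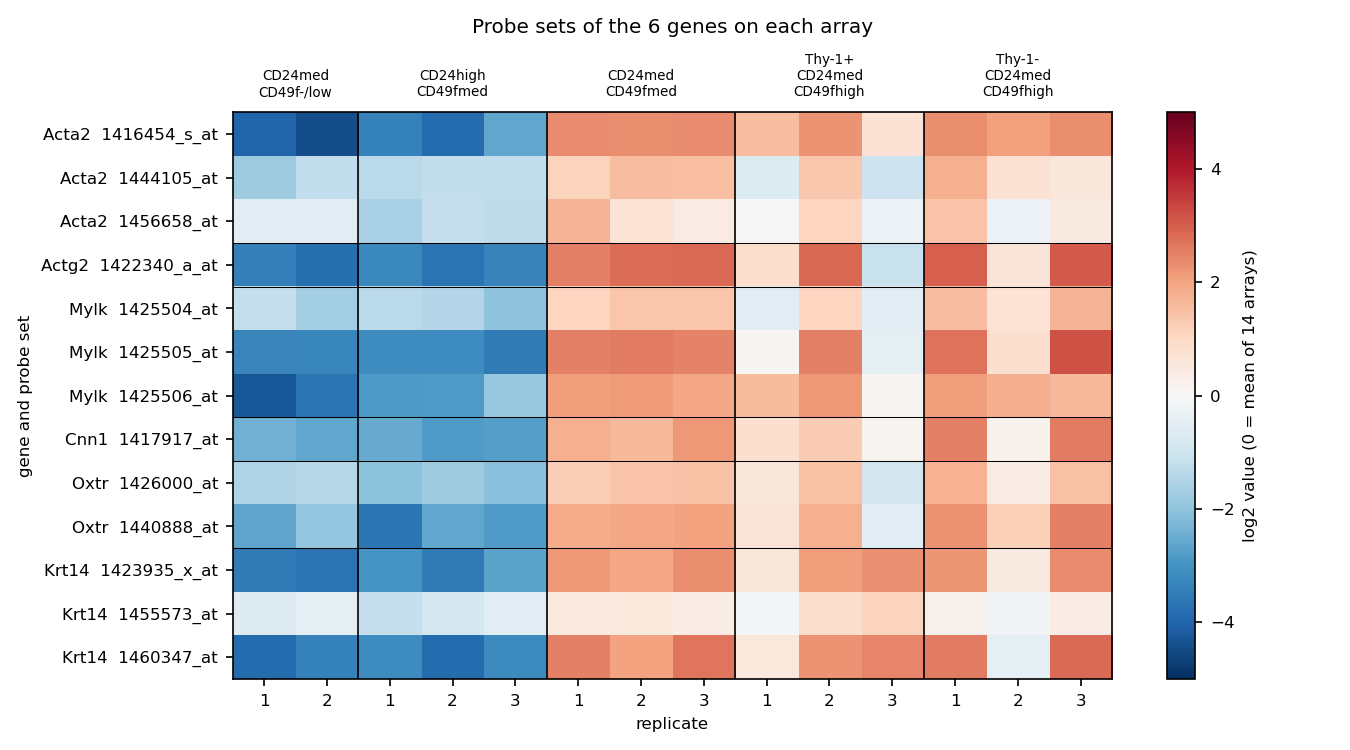
The log2 value of each of the 13 probe sets (rows, by gene) on each of the 14 arrays (columns, by population and replicate); red is above and blue below the mean of the 14 arrays. Acta2 1456658_at and Krt14 1455573_at vary least between luminal and basal arrays, with differences of -1.53 and -1.13.

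Genes that work beside the 6 members were mostly lower in luminal cells as well, in the contractile apparatus and among basal keratins and regulators. Of its 26 listed genes, members included, 19 others were measured: 15 were called lower, none higher and 4 did not pass, with a median of -1.70. Myl9, a myosin light chain that Mylk phosphorylates, differed by -5.21 ± 0.46. Tgfb1i1 (Hic-5, of focal adhesions) differed by -4.54 ± 0.38, the tropomyosin gene Tpm2 by -4.16 ± 0.30 and the transgelin gene Tagln, an actin cross-linker, by -3.97 ± 0.43. Desmin (Des), Cnn3, Tln1 and Csrp1 did not pass, at -0.42, -0.46, -0.76 and -0.24.

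Contraction signalling was mixed, with 11 of its 18 other measured genes called lower, 2 higher and 5 not called (median -1.32, 31 listed). The integrin gene Itga1 differed by -2.70 ± 0.35, the cyclic GMP dependent kinase gene Prkg1, which relaxes smooth muscle, by -2.61 ± 0.34 and the endothelin receptor gene Ednrb by -2.05 ± 0.44. Trpc6, a calcium-permeable channel, ran the other way at 2.48 ± 0.52. The genes between the oxytocin receptor and the kinase moved least: of 14 others measured from 26 listed, 3 were called lower, 2 higher and 9 neither, with a median of -0.34. Lower were Rgs5 (-2.12 ± 0.55, also on the pericyte list) and Rgs4 (-1.95 ± 0.42), which shorten signals of such receptors, and the calcium-dependent kinase gene Camk2g (-0.92 ± 0.34). Gnaq, the G protein subunit that couples the receptor, was at 0.10 ± 0.30, while the calcium release channel gene Itpr2 was higher at 1.00 ± 0.27.

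Around Krt14, 14 of 17 other measured genes of the basal keratin list (20 listed) were called lower in luminal cells, 1 higher and 2 neither, with a median of -2.78. Krt17 differed by -5.48 ± 0.46, the inhibitor of differentiation gene Id4 by -5.46 ± 0.41, the matrix protein gene Sparc by -5.18 ± 0.31 and the hemidesmosome collagen gene Col17a1 by -4.91 ± 0.39. Krt5, the partner of Krt14, differed by -4.44 ± 0.47, and Trp63, which encodes the basal regulator p63, by -4.08 ± 0.37. Sox9, which was higher, differed by 1.78 ± 0.26.

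Markers of other cell types moved with this comparison too. Of the fibroblast markers 7 of 8 measured were called lower in luminal cells, of the endothelial markers 5 of 9 and of the cornified keratinocyte markers 5 of 8. Of the Schwann markers 3 of 4 were called lower, and of the pericyte and vascular smooth muscle markers 7 of 11, with 1 higher. Over all rows 17.4% were called lower. Myh11 and Des are on both the pericyte and the contractile apparatus lists. Mean pericyte marker values ran from -0.83 to -0.64 on the luminal and from -0.10 to 2.06 on the basal arrays. Centred values cannot show which of these markers are near background, and their part in the result was not tested. All 11 measured luminal markers were called higher.

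**Figure D3:**
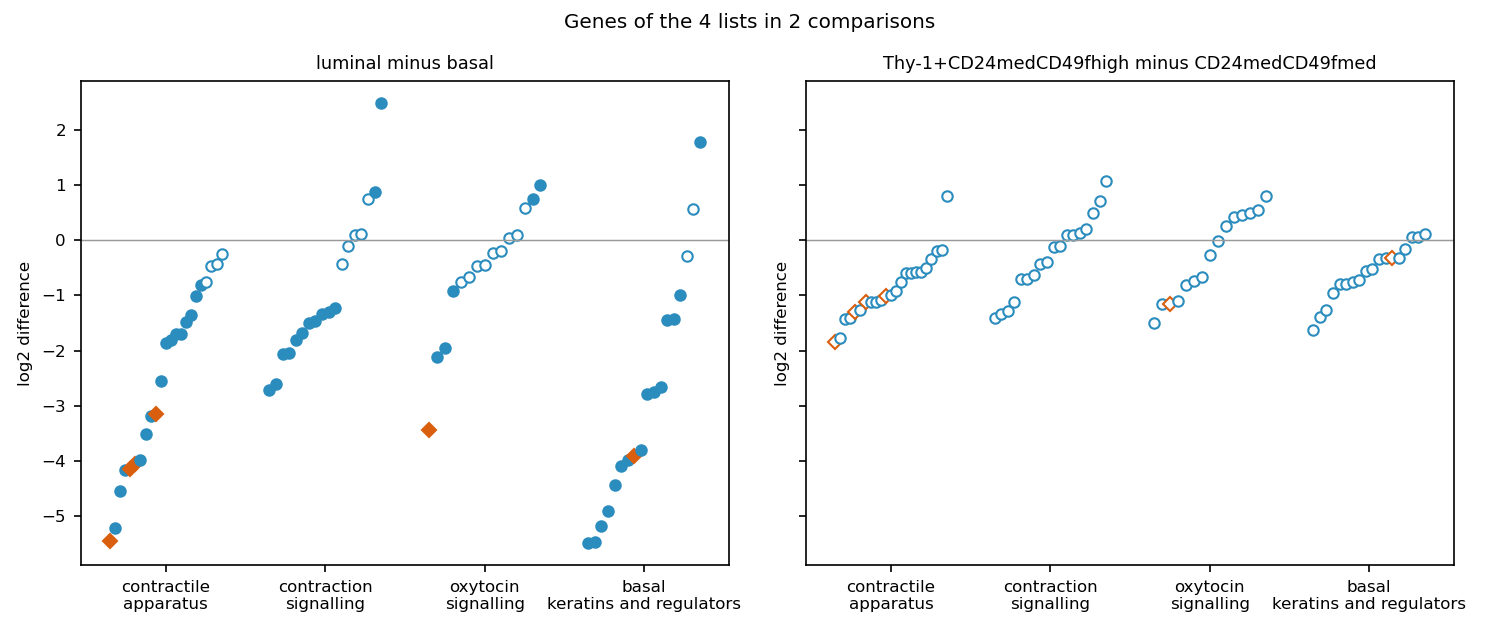
The log2 difference of each measured gene of 4 lists, as luminal minus basal (left) and Thy-1+CD24medCD49fhigh minus CD24medCD49fmed (right). Diamonds are the 6 members and circles other genes; filled symbols passed limma's test at adjusted p under 0.05. The contractile apparatus is below 0 throughout on the left, and no symbol is filled on the right.

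Within the luminal populations none of the 6 genes passed limma's test between CD24highCD49fmed and CD24medCD49f-/low cells, where 5.59% of all rows did. Oxtr was lower in CD24highCD49fmed cells by -0.62 ± 0.24 (95% interval -1.17 to -0.07, adjusted p = 0.147), and Mylk was at 0.43 ± 0.17 (0.04 to 0.82, adjusted p = 0.155). At an unadjusted p under 0.05 these 2 were the only ones, and the study's rank product test called none. For both genes the arrays of the populations did not overlap, as for 15.2% of all rows in the direction of Oxtr and 32.2% in that of Mylk. The Mylk value rested on 1 probe set: 1425506_at differed by 1.41 ± 0.33 (adjusted p = 0.0397 with each probe set on its own row), while 1425504_at and 1425505_at were at -0.15 ± 0.26 and 0.02 ± 0.21.

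The basal populations did not separate on these genes in the tests across all rows, alternatives named below aside. In order of population means, CD24medCD49fmed came first for all 6 genes. Thy-1-CD24medCD49fhigh came next and Thy-1+CD24medCD49fhigh last for the 5 contraction genes, and the reverse held for Krt14. For each gene, arrays of neighbouring populations in this order overlapped. Single probe sets did not all keep the order. Thy-1-CD24medCD49fhigh came first by Mylk 1425504_at and Oxtr 1440888_at, and Thy-1+CD24medCD49fhigh by Krt14 1455573_at. By Krt14 1423935_x_at, Thy-1-CD24medCD49fhigh (1.67) was just above Thy-1+CD24medCD49fhigh (1.65).

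Over the 3 CD24medCD49fmed arrays the SD was 0.07 for Mylk, 0.09 for Oxtr, 0.15 for Acta2, 0.16 for Actg2, 0.16 for Krt14 and 0.29 for Cnn1, where the median SD of all rows was 0.30. In Thy-1+CD24medCD49fhigh cells, with a median of 0.92 over all rows, Actg2 (2.00), Oxtr (1.19) and Mylk (1.15) spread more than the median row, and Acta2 (0.91), Krt14 (0.87) and Cnn1 (0.58) less. In Thy-1-CD24medCD49fhigh cells all 6 were above the median of 0.45, from 0.52 for Acta2 to 1.36 for Actg2 and 1.37 for Cnn1.

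Against the mean of both CD49fhigh populations, CD24medCD49fmed cells had values from 0.41 ± 0.51 (Krt14) to 1.16 ± 0.69 (Actg2) higher. For Actg2 the 95% interval was -0.28 to 2.61, and all 6 intervals included 0. The adjusted p was 0.887 for each gene, 0 of 6 also fell under an unadjusted p of 0.05, and 0% of all rows were called (57 at the unadjusted level). Exact permutation p ran from 0.214 for Acta2 to 0.738 for Krt14, with 0.0238 the smallest that 84 splits can give. The median over all rows was 0.28, and that of the 6 genes 0.63.

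Thy-1+CD24medCD49fhigh cells had lower means than CD24medCD49fmed cells for all 5 contraction genes, but no gene passed the test. Actg2 was at -1.84 ± 0.80 (95% interval -3.56 to -0.12), Mylk at -1.30 ± 0.61 (-2.62 to 0.01), Oxtr at -1.15 ± 0.62 (-2.48 to 0.18), Cnn1 at -1.12 ± 0.53 (-2.26 to 0.02) and Acta2 at -1.01 ± 0.57 (-2.24 to 0.22). Each had an adjusted p of 0.548, and 0% of all rows were called (383 at an unadjusted p under 0.05, Actg2 being the only 1 of the 6). Krt14 was at -0.32 ± 0.56 (-1.53 to 0.89, adjusted p = 0.756). Arrays of the populations did not overlap for Cnn1 alone, as for 6.86% of all rows in this direction. The median difference was -1.15 over the 5 contraction genes and -0.51 over all rows.

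This result depended on Thy-1+CD24medCD49fhigh replicate 2, the array on which Thy1 was at -0.07. Without it, 3 of the 6 genes passed limma's test, among 856 of 7190 rows in all: Actg2 at -2.84 ± 0.61 (adjusted p = 0.0418), Mylk at -1.94 ± 0.41 (0.0404) and Acta2 at -1.52 ± 0.40 (0.0497). Of these 856 rows 774 were lower and 82 higher. The Thy-1+CD24medCD49fhigh arrays left, replicates 1 and 3, had medians over all rows of -0.74 and -0.51. Same-numbered arrays of these populations deviated alike, though the labels state no pairing. With the number as a block in limma, 55 rows were called but none of the 6 genes, Actg2 coming nearest (adjusted p = 0.0719). The rank product test of the study's methods called Actg2 (permutation p = 0.00928, not adjusted), among 146 of 7190 rows that it called. It called a row when either direction had an unadjusted p under 0.01, so a count of this order is expected from the cutoff alone. With 3 arrays against 3, an exact permutation of 1 gene cannot go below 0.10.

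Between the Thy-1+ and Thy-1- fractions of the CD24medCD49fhigh gate, the comparison the study centred on, 0 of the 6 genes passed, 0 were under an unadjusted p of 0.05, and 0.0417% of all rows (3) were called. The contraction genes were at -1.35 ± 0.74 (Actg2), -1.14 ± 0.70 (Mylk), -1.09 ± 0.70 (Oxtr), -1.04 ± 0.70 (Cnn1) and -0.71 ± 0.69 (Acta2), with intervals that all included 0. Krt14 was at 0.19 ± 0.70 (95% interval -1.20 to 1.58). With arrays weighted by their fit in limma, Actg2 passed at -2.83 ± 0.65 (adjusted p = 0.00898). It was among 199 of 7190 rows called so, 146 lower and 53 higher. The rank product test called none of the 6.

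Between Thy-1-CD24medCD49fhigh and CD24medCD49fmed cells the 5 contraction genes differed less than in the other pairs of basal populations, and Krt14 differed more, by the size of the mean difference. The 6 differences ran from -0.51 ± 0.48 (Krt14) to -0.06 ± 0.38 (Oxtr), with adjusted p of 0.999 each, 0% of rows called (84 at the unadjusted level), and none of the 6 called by rank products. The widest 95% interval, that of Cnn1, was -1.40 to 1.24. Without Thy-1-CD24medCD49fhigh replicate 2, Actg2, Mylk, Cnn1, Oxtr and Krt14 changed sign, with Cnn1 at 0.71. A moderated F test of any difference among the 3 basal populations gave adjusted p of 0.722 for the contraction genes and 0.884 for Krt14. When Thy-1+CD24medCD49fhigh replicate 2 was left out, 636 of 7190 rows passed that F test, Mylk being the only 1 of the 6 genes. These comparisons share arrays.

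**Figure D4:**
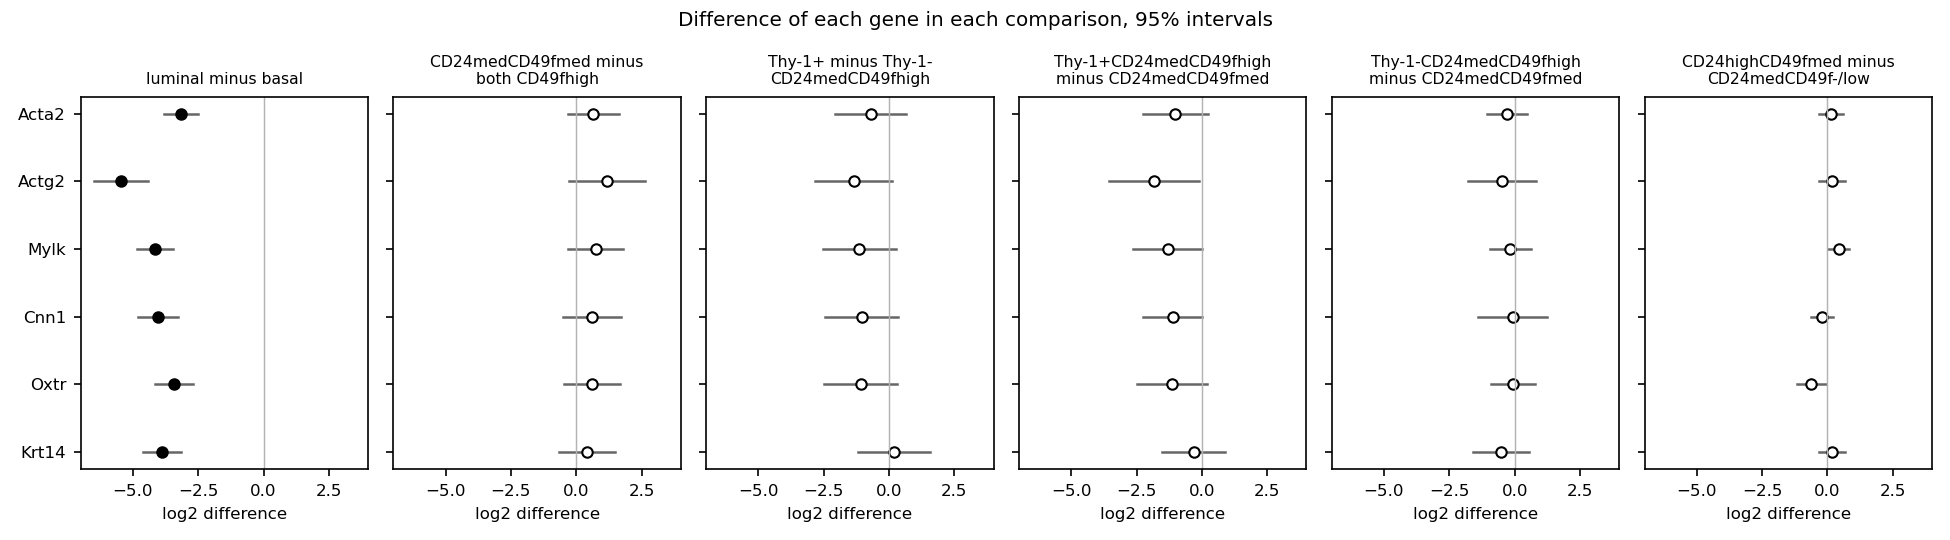
The log2 difference of each gene in each of 6 comparisons, with lines for the 95% interval of limma; filled points passed at adjusted p under 0.05. The 6 filled points are those of luminal minus basal, from -5.44 (Actg2) to -3.15 (Acta2).

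Among the other listed genes none was called in any comparison between basal populations, the Schwann marker list aside, where 1 of 4 measured genes, Cdh19, named after its value was seen, was called higher in Thy-1+ than in Thy-1- cells of the CD24medCD49fhigh gate (3.29 ± 0.73). Of the other genes of the contractile apparatus list, 18 of 19 had a lower mean in Thy-1+CD24medCD49fhigh than in CD24medCD49fmed cells, none of them past the test. Their median difference was -0.75 beside -0.51 over all rows. Most rows of the whole table thus had a lower mean here too, and their share was not counted. Also lower were 14 of 17 other genes of the basal keratin list, with a median of -0.55, close to that of all rows. In contraction signalling 11 of 18 were lower (median -0.25), as were 8 of 14 oxytocin genes (median -0.14). Both of these latter medians were less negative than that of all rows. CD24medCD49fmed minus both CD49fhigh populations was 0.95 ± 0.57 for the smoothelin gene Smtn, 0.87 ± 0.61 for Tagln and 0.82 ± 0.57 for the filamin gene Flna. In contraction signalling the same difference was -0.80 ± 0.69 for Trpc6, 0.76 ± 0.51 for Prkg1 and 0.74 ± 0.61 for the integrin gene Itga8. It was 0.83 ± 0.76 for Rgs5, 0.78 ± 0.54 for the calcium pump gene Atp2b1 and 0.77 ± 0.49 for Camk2g among the oxytocin genes. Among basal keratins and regulators it was 1.05 ± 0.58 for the laminin gene Lamb3, 0.85 ± 0.63 for Krt17 and 0.80 ± 0.57 for Id4, and none of these values passed the test.

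Single arrays showed where contraction genes and Krt14 went together and where they parted. On the 3 CD24medCD49fmed arrays the mean of the 5 contraction genes was 1.89, 1.93 and 2.02. In the Thy-1- fraction of the CD49fhigh gate, replicates 1 and 3 were as high (2.29 and 2.18), as was Thy-1+CD24medCD49fhigh replicate 2 (1.85), with Krt14 between 1.48 and 1.85 on all 6. Both were low on Thy-1-CD24medCD49fhigh replicate 2, at 0.71 with Krt14 at -0.05, and on replicate 1 of the Thy-1+ fraction, at 0.58 with Krt14 at 0.35.

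Thy-1+CD24medCD49fhigh replicate 3 was low in one and high in the other. Its contraction genes averaged -0.45, from -1.13 for Actg2 to 0.13 for Cnn1, while Krt14 was at 1.94 and Krt5 at 2.62, both above every other basal array. The contraction mean minus Krt14 was -2.40 on this array and between 0.11 and 0.76 on the other 8. Other contractile genes were low there as well, with Tagln at -0.66 and Tgfb1i1 at -0.60, but Myl9 was at 1.22 and the smooth muscle myosin gene Myh11 at 0.37. The keratin list was split on it: Trp63 was at 1.58, Krt17 at 0.51 and Id4 at -0.54.

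The array of low Krt14, Thy-1-CD24medCD49fhigh replicate 2, was split along another line. Krt5 was at -0.57 and Krt17 at -0.22, yet Trp63 was at 1.38 and Id4 at 2.21. Tagln and Myl9 were at -0.20 and -0.91, while Mylk (1.09), Tgfb1i1 (1.40) and Myh11 (1.31) stayed higher. On Thy-1+CD24medCD49fhigh replicate 1 Trp63 was at -0.53 and Krt5 at -0.06, with Myl9 at 2.22 and Myh11 at 1.80.

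Over the 9 basal arrays the contraction genes followed each other, with Pearson's r between 0.74 (Acta2 and Cnn1) and 0.99 (Actg2 and Oxtr). Their r with Krt14 was lower, from 0.24 for Oxtr to 0.55 for Cnn1. The gap rested on 1 array: over the 8 arrays without Thy-1+CD24medCD49fhigh replicate 3, left out after the values were seen, r with Krt14 was 0.78 for Acta2, 0.88 for Mylk, 0.87 for Cnn1, 0.93 for Oxtr and 0.98 for Actg2. All points of a gene come from the same arrays and share their overall signal, so these values are descriptions.

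**Figure D5:**
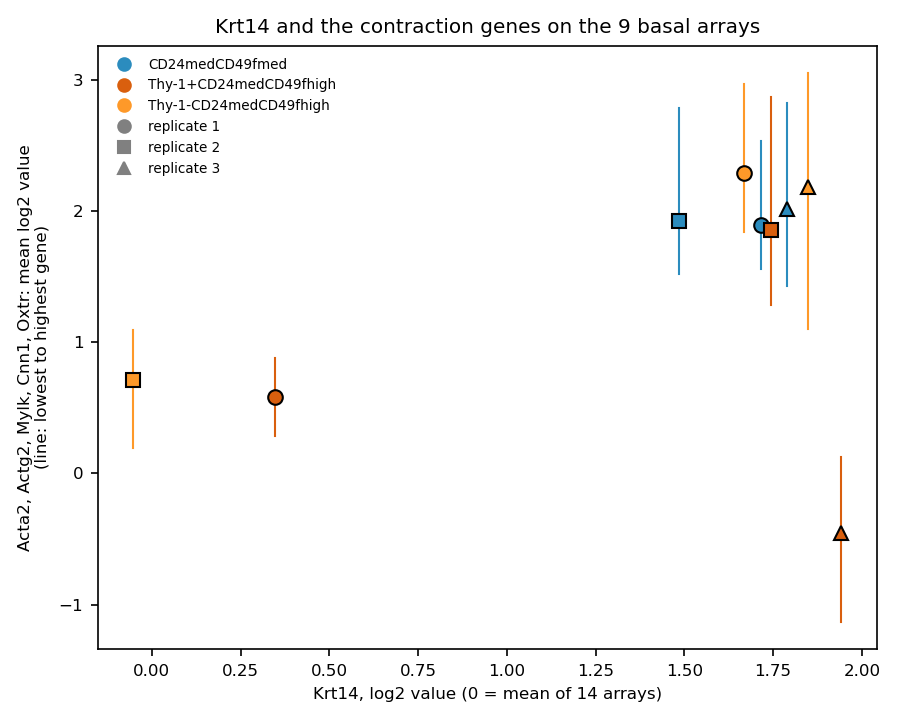
Each of the 9 basal arrays by its Krt14 value (x axis, log2) and the mean of Acta2, Actg2, Mylk, Cnn1 and Oxtr (y axis, log2), with a line from the lowest to the highest of the 5 genes; colours are populations and shapes replicates. Thy-1+CD24medCD49fhigh replicate 3 lies alone at the lower right, at 1.94 and -0.45.

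Marker genes of other cells stood out on the same arrays. On Thy-1+CD24medCD49fhigh replicate 3 all 8 measured cornified keratinocyte markers were above 0 with a mean of 3.90, and all 4 Schwann markers with a mean of 2.08. Fibroblast markers averaged 1.85 there (-0.83 to 3.76, 6 of 8 above 0), although an antibody to CD140a, a fibroblast surface marker, is among the reagents. On replicate 1 all 9 endothelial markers were above 0 with a mean of 3.06, and 10 of 11 pericyte markers with a mean of 2.06, although CD31 was stained in the sort. The pericyte list shares Myh11 and Des with the contractile apparatus list and a further gene with the endothelial list, so these counts are not independent. Cornified markers were also high on CD24medCD49fmed replicates 2 and 3 (1.82 and 1.92), and endothelial markers on its replicate 1 (2.51). The mean of the contraction genes on the CD24medCD49fmed arrays was 1.89 to 2.02. On Thy-1-CD24medCD49fhigh replicate 2 none of the means of these lists passed 0.45. The part of these markers in the levels of the 6 genes was not tested.

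Genes most like each member were ranked by Pearson's r over the same 9 basal arrays. For Acta2 they were Pkn2, Setd5 and Cpd (0.99 to 0.98), for Actg2 Emid1, Ldhb and Fah, and for Mylk Dpysl3, Camk4 and Fmod. For Cnn1 they were Mdk, Alpl and Rcn3, for Oxtr Pdlim7, Bace1 and Fbxo32, and for Krt14 Tapbp, Dcaf8 and Krt5 (0.97 each). Over all 14 arrays, where luminal and basal arrays form separate clusters that set r, Dpysl3 was among the 3 nearest of Acta2, Actg2 and Mylk, Fst was nearest to Acta2, Aebp1 to Cnn1, Ephb1 to Oxtr and Krt5 to Krt14.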

How the data were processed

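RNA of sorted cells was extracted with Trizol, labelled by a two-cycle 3' protocol and hybridized to 14 arrays. The authors deposited log2 values, normalized by RMA in MIDAS (the submitters' notes also name GCRMA), filtered in Cluster 3.0 on signal and range and mean-centred per probe set. Their versions were not given in the sources used here. Centring bars absolute levels and a filter on dim probe sets, and the range filter raises the share of rows that differ. The number of arrays limits the precision.

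The platform annotation gave 8499 probe sets 1 symbol, 199 several and 947 none. Probe sets of 1 symbol were averaged, and 7190 rows were tested by limma's moderated test (version 3.58.1, R 4.3.3, two-sided; functions lmFit and eBayes), with Benjamini-Hochberg adjusted p under 0.05 over all rows as the call. Luminal against basal was fitted on 14 arrays and the others on the arrays of the groups compared. Exact permutation and rank products (100 permutations, unadjusted p under 0.01, after the study's methods) ran in Python 3.11.15 with scipy 1.17.1 and numpy 2.4.6, on code tested on simulated data. Groups came from the sample titles. The members, lists and tests were chosen with earlier results of these data known. Besides the members, the text names the 4 genes of each pathway list with the largest luminal against basal difference, the 3 with the largest CD24medCD49fmed against both CD49fhigh difference, and the 3 genes nearest each member; Krt5, Trp63, Myh11, Tagln, Thy1 and Krt18 where a result turned on them; and Des, Cnn3, Tln1, Csrp1, Gnaq, Sox9 and Cdh19 after their values were seen.

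Deviations from group means were correlated between same-numbered arrays only. For CD24medCD49fmed and Thy-1+CD24medCD49fhigh arrays r was 0.39, 0.39 and 0.39. For CD24medCD49fmed and Thy-1-CD24medCD49fhigh arrays it was 0.37, 0.33 and 0.56. In both cases same-numbered arrays were treated as possible pairs. Those of the Thy-1+ and Thy-1- fractions (-0.002, -0.16 and 0.25) were not. The labels do not say what equal numbers share, and arrays of unequal number were not compared, so pairing is not established.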

Additional observations from a re-analysis of the deposited data

How the results depend on the processing

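All 6 members stayed called luminal against basal in every alternative run, including each left-out array, where Actg2 ranged from -5.78 to -5.11 and Acta2 from -3.27 to -2.98. With the probe set of largest range per gene, Acta2 was at -5.77. In basal comparisons no member was called in the main fits, and members called rose to 1 between Thy-1+ and Thy-1- fractions with array weights, to 1 against CD24medCD49fmed with rank products, and to between 0 and 3 there and between 0 and 1 in the F test when arrays were left out in turn, the highest counts coming without Thy-1+CD24medCD49fhigh replicate 2. With each probe set on its own row 1 member (Mylk) was called between the luminal populations. The cause of these changes was not tested.

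Uncalled differences that changed sign were these. Krt14 between the Thy-1+ and Thy-1- fractions was -0.015 by 1423935_x_at and ran from -0.41 to 0.69 with arrays left out. Against CD24medCD49fmed, Krt14 in Thy-1+CD24medCD49fhigh cells was 0.18 by 1455573_at, 0.15 with arrays centred on their medians and -0.62 to 0.18 with arrays left out. For Thy-1-CD24medCD49fhigh against CD24medCD49fmed, array weights gave 0.0797 (Mylk), 0.23 (Cnn1) and 0.15 (Oxtr), quantile normalization 0.18 (Cnn1), 1425504_at 0.0099 (Mylk), and 1440888_at, the Oxtr probe set of largest range, 0.0548. With arrays left out, these ran from -0.90 to 0.30 (Actg2), -0.35 to 0.19 (Mylk), -0.49 to 0.71 (Cnn1), -0.26 to 0.34 (Oxtr) and -0.86 to 0.0943 (Krt14). Between luminal populations Acta2 was -0.77 by 1456658_at and -0.034 with arrays centred, Actg2 -0.0738 with quantile normalization, Mylk -0.15 by 1425504_at and Krt14 -0.28 by 1455573_at.

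Rows called over the whole table moved more than 1.5 times as follows. For the Thy-1+ and Thy-1- fractions 3 became 0 with all 14 arrays, own rows for probe sets, median centring or quantile normalization, 199 with array weights, 162 with rank products and 0 to 10 with arrays left out. Against CD24medCD49fmed, 0 became 4 with array weights and 146 with rank products for Thy-1+CD24medCD49fhigh (0 to 856 with arrays left out), and 162 with rank products for Thy-1-CD24medCD49fhigh cells (0 to 1, the 1 without CD24medCD49fmed replicate 3). Rank product calls were not adjusted, and counts of this order are expected from the cutoff alone. In the F test among basal populations, 0 became 636 without Thy-1+CD24medCD49fhigh replicate 2. Between luminal populations 402 became 4 with all 14 arrays, 727 with array weights, 608 with own rows and 0 to 662 with arrays left out. Luminal against basal, 3242 became 2124 without CD24medCD49f-/low replicate 2, and 47.7% (median centring) or 53.4% (quantile normalization) of called rows were higher in place of 61.4%. With the replicate block, 5 rows were called between the Thy-1+ and Thy-1- fractions and 829 between the luminal populations. The former were not treated as possible pairs, and the latter share only 2 numbers (r of deviations 0.30 and 0.15), too few to judge. Besides the 55 rows given above, the block changed no call of a member.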
